A study of Homo sapiens with 6 samples.

Results

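*ALOX5AP*, the gene of the 5-lipoxygenase-activating protein, was examined together with the genes that turn arachidonic acid into leukotrienes and prostaglandins and with the gene that breaks prostaglandins down. 10 genes were looked up by symbol, namely *ALOX5AP*, *ALOX5*, *LTA4H*, *LTC4S*, *ALOX12*, *ALOX15B*, *PTGS1*, *PTGS2*, *PTGES* and *HPGD*, and 9 of them were found among the 14812 genes with a named probe set. *ALOX15B* was not analysed here. *ALOX5AP* was chosen by its difference in log2 signal between the lines compared here, so that difference is given as a description with no test. The others were taken from the same pathway.

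UMSCC1 is an established oral squamous carcinoma cell line from a tumor of the floor of the mouth, and UM-Cis is a subline derived from it. UM-Cis had been passaged in cisplatin, a platinum drug that crosslinks DNA, whose concentration was raised from 1 to 5 μg/mL over about 12 months. The study's methods describe a parental control line kept alongside in the DMSO vehicle, but the labels of the UMSCC1 arrays do not say whether these cells were that control. RNA of both lines came from cells grown without cisplatin, so the comparison asks how an adapted line differed at rest and not how cells respond to the drug. There was 1 derived subline. Each line had 3 arrays (Affymetrix Human Gene 2.0 ST), labelled with no number, 1 and 2, and no source ties them to separate cultures. The p-values therefore describe the spread among these 6 arrays, which may be technical.

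The values were the authors' log2 signals, on which a difference of 1 is a 2-fold change. The median of an array lay between 4.74 and 4.82. Over all genes, the first principal component (51.5% of the variance) separated the lines and the second (28.6%) separated the array with no number from the numbered arrays in both lines. Of the epithelial markers fixed for the labelled squamous tumor type, 10 of 15 were measured. *SFN* (11.1 in UM-Cis and 11.3 in UMSCC1) and *EPCAM* (10.3 and 10.6) were bright in both lines, whereas the squamous keratins *KRT13* and *KRT5* were lower in UM-Cis (4.20 against 6.24, and 4.68 against 6.61, limma adjusted p = 0.00062 and 0.0091). In UM-Cis the means of both keratins lay under the array medians. The study reported strong staining for the KRT13 protein in mouse xenografts of both lines, whereas these values are RNA from cultured cells. By the methods' t-test the adjusted p of *KRT5* was 0.112. The other 8, *KRT14*, *KRT16*, *DSP*, *DSG3*, *PKP1*, *IVL*, *SFN* and *EPCAM*, did not pass by limma, with differences between -0.92 for *KRT14* and 0.32 for *DSG3*. Over all genes, 10.5% passed in either direction. The mean log2 signal of the 10 markers ranged from 6.33 to 6.50 in UM-Cis and from 6.84 to 7.05 in UMSCC1. The median difference of the 10 was -0.21, beside -0.04 over all genes. The lines did not overlap for 3 of the 10, *KRT13*, *KRT5* and *KRT14*, beside 30.4% of all genes, and these 3 had the lowest differences.

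Eicosanoids are short-lived lipid signals made from arachidonic acid released from membranes. In the leukotriene branch the membrane protein encoded by *ALOX5AP* presents arachidonic acid to 5-lipoxygenase (*ALOX5*), and the resulting leukotriene A4 is converted to leukotriene B4 by *LTA4H* or joined to glutathione by *LTC4S*. In the prostanoid branch the cyclooxygenases *PTGS1* and *PTGS2* form prostaglandin H2, *PTGES* turns it into prostaglandin E2, and *HPGD* inactivates the product. The leukotriene branch is best known from leukocytes, and *PTGS2* is an inducible gene in epithelia.

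To show what lies at an annotated start site of the gene with the lowest difference and of the inducible cyclooxygenase, windows were taken from RefSeq (GRCh38.p14). They ran from 250 bases before to 50 bases after the start. A window was at hand for 8 of the 10 genes, not for *ALOX5* and *ALOX15B*. Only the first listed window of a gene was used, so any other start sites of these genes were not searched. Matches to the TATA box (TATAAA), the GC box (GGGCGG) and the CCAAT box (CCAAT) were searched on both strands and are in capitals. The *ALOX5AP* window lies at chr13:30713235-30713534 on the plus strand and the *PTGS2* window at chr1:186680374-186680673 on the minus strand.
ALOX5AP: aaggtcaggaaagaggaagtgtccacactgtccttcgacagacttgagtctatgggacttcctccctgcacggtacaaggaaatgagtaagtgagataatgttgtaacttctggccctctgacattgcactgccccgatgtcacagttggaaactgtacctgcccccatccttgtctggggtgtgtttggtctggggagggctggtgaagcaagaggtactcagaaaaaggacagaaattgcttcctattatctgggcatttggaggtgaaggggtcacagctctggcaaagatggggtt
PTGS2: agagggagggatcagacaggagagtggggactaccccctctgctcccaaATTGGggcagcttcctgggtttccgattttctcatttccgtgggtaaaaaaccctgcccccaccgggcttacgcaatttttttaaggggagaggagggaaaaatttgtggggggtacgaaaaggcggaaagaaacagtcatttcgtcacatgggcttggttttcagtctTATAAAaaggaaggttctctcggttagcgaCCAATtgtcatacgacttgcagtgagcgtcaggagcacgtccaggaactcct
The *ALOX5AP* window held none of these motifs, and the *PTGS2* window held 1 TATA box and 2 CCAAT boxes. Among the promoters of tested genes with a window, 8.49% held a TATA box, 60.5% a GC box and 36% a CCAAT box. The windows of *ALOX5AP* and *PTGS2* were 50.3% and 50.7% G and C, below the median of 63.3% over those promoters. A match is a description of letters, not of a bound factor.

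In the leukotriene branch, the signal of the activating protein was lower in UM-Cis than in UMSCC1 and the signal of the lipoxygenase it serves was higher. *ALOX5AP* (GRCh38.p14 chromosome 13, 30713485 to 30764426) had log2 signals of 5.86, 5.67 and 5.86 in UM-Cis (no number, array 1, array 2) and of 8.25, 7.91 and 7.70 in UMSCC1. Every UM-Cis array lay below every UMSCC1 array, and the gap of 1.84 between the groups was wider than the range within either (0.20 and 0.55). The means were 5.79 ± 0.11 and 7.95 ± 0.28 (SD, n = 3 each), a difference of -2.16 or 4.46-fold. Both means lay above the array medians. A difference at least as low was found for 15 of the 14812 genes (0.101%), and one at least as large in either direction for 43 (0.29%), *ALOX5AP* included. In RNA from a whole culture, fewer cells with the transcript and less transcript per cell cannot be told apart.

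*ALOX5* (chromosome 10, 45374216 to 45446117) had log2 signals of 6.83, 6.59 and 6.49 in UM-Cis and 5.35, 5.21 and 5.05 in UMSCC1. All 3 UM-Cis arrays were above all 3 UMSCC1 arrays, with a gap of 1.14. The difference was 1.43 (SE 0.15, 95% interval 1.09 to 1.78), a 2.70-fold increase, and passed the test by limma (adjusted p = 0.0012). It passed in all 19 alternative settings and left-out arrays as well, with an adjusted p between 9.5e-05 and 0.0286. Over all genes, 131 (0.884%) had a difference at least as high. The means were 6.64 ± 0.18 and 5.20 ± 0.15 (SD, n = 3 each), both above the array medians.

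*LTA4H*, the hydrolase that makes leukotriene B4 (chromosome 12, 96000753 to 96043520), was well above the array medians in both lines. Its log2 signals were 8.72, 8.31 and 8.39 in UM-Cis and 8.53, 8.86 and 8.76 in UMSCC1. The groups overlapped through the arrays with no number, which ran against the numbered ones. The difference of -0.25 (95% interval -0.62 to 0.12) did not pass the test (limma adjusted p = 0.41). With the numbered arrays alone, a setting chosen after seeing the data, it was -0.46 and passed (limma adjusted p = 0.0414).

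*LTC4S*, which makes leukotriene C4 and belongs to the same membrane protein family as *ALOX5AP* (chromosome 5, 179793986 to 179796647), had log2 signals of 6.60, 6.44 and 6.60 in UM-Cis and 6.92, 6.77 and 6.58 in UMSCC1. The groups overlapped and the difference of -0.21 (95% interval -0.53 to 0.11) did not pass (limma adjusted p = 0.41). *ALOX5AP* and *ALOX5* thus stood apart by line in opposite directions, while the intervals of the enzymes on both arms below them included 0.

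*ALOX12*, the platelet-type lipoxygenase (chromosome 17, 6996049 to 7010754), was dim. Its log2 signals of 4.31, 4.38 and 4.06 in UM-Cis and 4.53, 4.30 and 4.54 in UMSCC1 were under the array median in all 6 arrays. The groups overlapped and the difference of -0.21 (95% interval -0.54 to 0.12) did not pass (limma adjusted p = 0.43). The antisense gene *ALOX12-AS1* overlaps this locus. It had log2 signals of 6.20, 6.14 and 6.17 in UM-Cis and 5.47, 5.61 and 5.92 in UMSCC1, a difference of 0.50 that did not pass (limma adjusted p = 0.0738).

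In the prostanoid branch no gene passed the test, and *PTGS2* came nearest. *PTGS2*, the inducible cyclooxygenase (chromosome 1, 186671791 to 186680423), had log2 signals of 5.66, 5.29 and 4.98 in UM-Cis and 6.06, 5.96 and 5.89 in UMSCC1. All UM-Cis arrays were below all UMSCC1 arrays, but the gap of 0.23 was smaller than the range of 0.67 within UM-Cis. The difference was -0.66 (SE 0.18, 95% interval -1.08 to -0.24), 1.58-fold, with a limma adjusted p of 0.057. With arrays of the same number paired as a replicate block the limma adjusted p was 0.0215, and without the UM-Cis array with no number the difference was -0.83 and the limma adjusted p 0.0169. The methods' t-test gave an adjusted p of 0.179 over all genes by the same adjustment as limma.

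*PTGS1*, the constitutive cyclooxygenase (chromosome 9, 122370533 to 122395703), had log2 signals of 4.94, 5.14 and 4.78 in UM-Cis and 4.91, 5.23 and 5.07 in UMSCC1. The groups overlapped, with a difference of -0.11 (95% interval -0.46 to 0.23, limma adjusted p = 0.71). The unequal behaviour of the 2 cyclooxygenases was not itself tested.

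*PTGES*, the microsomal prostaglandin E synthase (chromosome 9, 129738349 to 129753042), had log2 signals of 7.20, 6.97 and 6.97 in UM-Cis and 8.23, 7.23 and 7.09 in UMSCC1. The UMSCC1 array with no number was the only one above 8, and the groups overlapped. The difference of -0.47 (95% interval -1.12 to 0.17) did not pass (limma adjusted p = 0.36), and without that array it was -0.11.

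*HPGD*, the dehydrogenase that inactivates prostaglandins (chromosome 4, 174490175 to 174522893), was dim. Its log2 signals were 3.38, 2.84 and 3.14 in UM-Cis and 3.22, 3.30 and 3.32 in UMSCC1, under the array median in all 6 arrays. The difference was -0.16 (95% interval -0.53 to 0.21, limma adjusted p = 0.61).

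**Figure D1:**
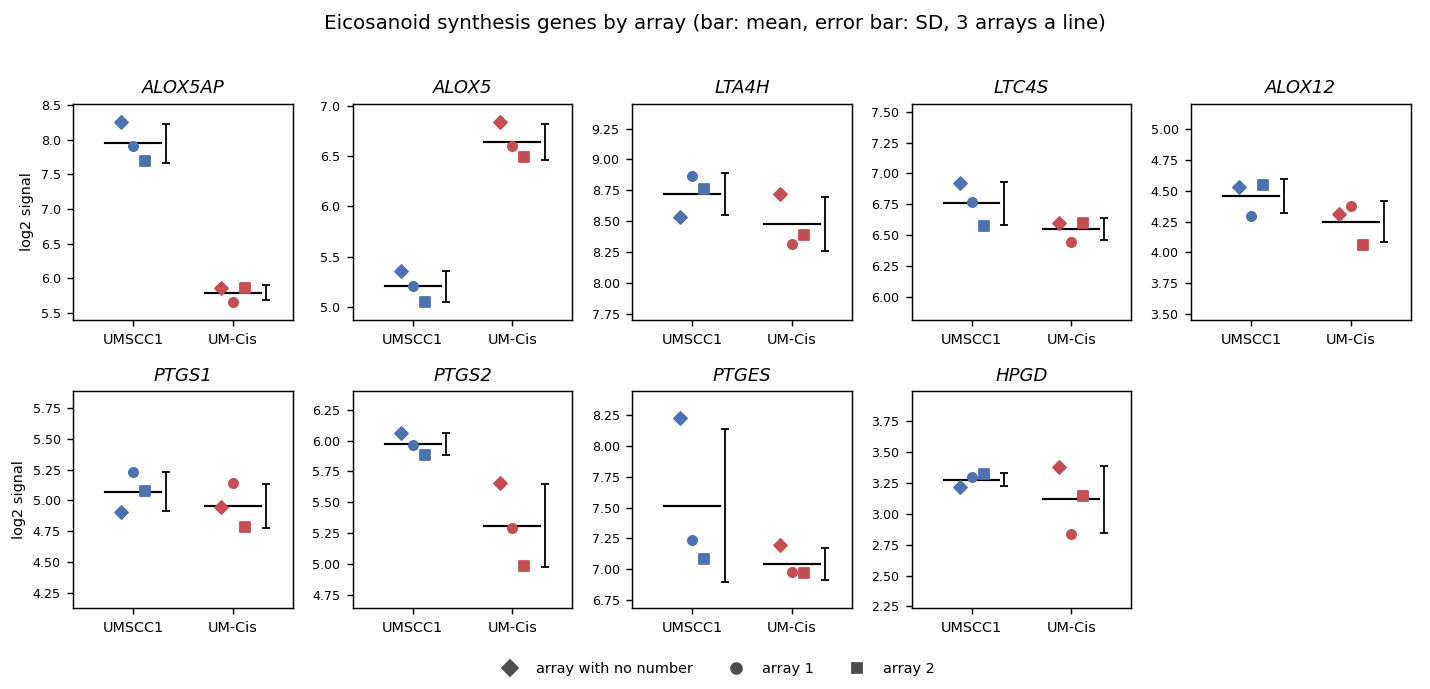
Log2 signal of the 9 measured eicosanoid synthesis genes on each array, with a bar for the mean and an error bar for the SD of the 3 arrays of a line (UMSCC1 blue, UM-Cis red) and a separate axis range for each gene. The lines do not overlap for *ALOX5AP*, *ALOX5* and *PTGS2*, and the UMSCC1 array with no number stands above the other arrays for *PTGES*.

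Of the 8 measured genes other than *ALOX5AP*, 1 was higher in UM-Cis by limma, 0 were lower and 7 did not pass. Over all genes, 5.91% were called higher, 4.6% lower and 10.5% in either direction. At an unadjusted p under 0.05, 1 of the 8 was higher and 1 lower, and over all genes 24.7% were in either direction. The groups did not overlap for *ALOX5* and *PTGS2*, 2 of the 8, and for 30.4% of all genes (14.7% higher, 15.7% lower). The study selected genes at 2-fold or more with a p under 0.05 and does not say whether that p was adjusted. With the unadjusted limma p in its place, 1 of the 8 was higher and 0 were lower. Of all genes, 2.44% were higher and 1.7% lower by this rule (4.15% in either direction). The median difference of the 8 was -0.21, beside -0.04 over all genes. 7 of the 8 had a negative difference, as had 8165 of the 14812 genes. Of those 7, 6 turned positive when arrays were scaled so that control genes had 1 median, which added 0.55 to the difference of every gene. The 14 control genes themselves had a median difference of only -0.08. With each control gene first centred on its own mean, a setting added after seeing the data, the scaling added 0.13. *PTGS1* then turned positive (0.01) and the others of the 7 stayed negative.

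The wider pathway was listed as 84 genes, of which 37 were measured. By limma, 6 rose in UM-Cis, 3 fell and 28 did not pass, beside 10.5% of all genes past the test in either direction. The median difference was -0.13, beside -0.04 over all genes. The genes that rose were the prostaglandin reductases *PTGR2* and *PTGR1*, the glutathione transferase *MGST1*, the prostaglandin E2 receptor *PTGER4*, the lipoxygenase *ALOXE3* and the 5-lipoxygenase-binding protein *COTL1*. Those that fell were the acyltransferase *LPCAT3*, the carbonyl reductase *CBR3* and the epoxide hydrolase *EPHX3*. By the methods' t-test 3 of the 6 increases and 1 of the 3 decreases passed, and under the control gene scaling 0 decreases did (limma adjusted p of 0.0555 for *CBR3*, 0.0985 for *LPCAT3* and 0.728 for *EPHX3*). With control genes centred by gene, 2 of the 3 decreases passed.

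Of the genes for inactivation and transport, 3 of 6 were measured and all 3 passed, beside 10.5% of all genes in either direction. *PTGR2*, which reduces 15-keto prostaglandins after *HPGD* has acted, had log2 signals of 8.54, 8.37 and 8.28 in UM-Cis and 6.96, 6.87 and 6.80 in UMSCC1. The difference of 1.52 (SE 0.13) was a 2.87-fold increase (limma adjusted p = 0.0007), past the threshold in all 19 alternatives. *PTGR1*, which acts on the same prostaglandins and also oxidizes leukotriene B4, had log2 signals of 10.3, 10.4 and 10.4 in UM-Cis and 8.89, 9.43 and 9.30 in UMSCC1. It rose 2.26-fold (log2 1.18, SE 0.16, limma adjusted p = 0.0039). *CBR3*, a relative of the prostaglandin E2 reductase *CBR1*, had log2 signals of 5.76, 5.66 and 5.70 in UM-Cis and 6.75, 6.78 and 6.70 in UMSCC1. It fell 2.05-fold (log2 -1.04, SE 0.12, limma adjusted p = 0.0017), with a gap between the lines far wider than the spread in either.

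Among the relatives of *ALOX5AP* in its membrane protein family, *MGST1* rose while the others measured did not pass. *MGST1* had log2 signals of 7.84, 8.02 and 8.03 in UM-Cis and 6.92, 7.14 and 7.01 in UMSCC1, a difference of 0.94 (SE 0.13, limma adjusted p = 0.0041) that passed in all 19 alternatives. *MGST2* had a difference of -0.57 (95% interval -1.24 to 0.09) and *MGST3* one of -0.22 (95% interval -0.70 to 0.26). *COTL1*, which binds 5-lipoxygenase, had log2 signals of 10.8, 10.7 and 10.8 in UM-Cis and 10.2, 10.4 and 10.3 in UMSCC1 and rose by 0.49 (limma adjusted p = 0.0437). The call of *COTL1* was lost when any 1 of the 6 arrays was left out, with an adjusted p of up to 0.138.

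For arachidonate supply, 4 of 26 listed genes were measured. *LPCAT3*, which places arachidonate into membrane phospholipids, had log2 signals of 8.62, 8.96 and 8.70 in UM-Cis and 9.57, 10.03 and 9.95 in UMSCC1. It fell 2.13-fold (log2 -1.09, SE 0.17, limma adjusted p = 0.0059). *MGLL*, a lipase that frees arachidonate from a glycerol ester, had a difference of 0.54 that did not pass (limma adjusted p = 0.0697).

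Of the other lipoxygenases, *ALOXE3*, an epidermal enzyme of the hepoxilin pathway, had log2 signals of 7.18, 7.02 and 7.46 in UM-Cis and 6.17, 6.63 and 6.49 in UMSCC1. The difference of 0.79 passed (limma adjusted p = 0.0256) but not without UM-Cis array 2 or without any 1 UMSCC1 array (adjusted p up to 0.0941). *ALOX15* had a difference of -0.08 (95% interval -0.45 to 0.28). In the cytochrome P450 branch 1 of 13 genes was measured. *EPHX3*, which hydrolyses fatty acid epoxides, fell from 5.79 ± 0.28 to 5.14 ± 0.12 (log2 -0.65, limma adjusted p = 0.0459). This call was lost on leaving out any array except the UMSCC1 array with no number, with an adjusted p of up to 0.162.

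No prostanoid synthase outside the genes first listed passed. All 7 measured of 11, among them *PTGES2*, *PTGES3*, *CBR1* and *TBXAS1*, had differences between -0.38 and -0.08. Over all genes, 8165 of 14812 were negative. All 7 turned positive under the control gene scaling, which added 0.55 to every difference although the control genes' own median difference was -0.08. Of the receptors, 14 of 17 were measured and 1 passed, a share near the 10.5% of all genes. *PTGER4*, which raises cyclic AMP on binding prostaglandin E2, had log2 signals of 4.89, 5.80 and 5.67 in UM-Cis and 4.33, 4.54 and 4.66 in UMSCC1. The UM-Cis array with no number was closer to the UMSCC1 arrays than to the other UM-Cis arrays. The difference was 0.94 (SE 0.24, limma adjusted p = 0.0428), and the call was lost on leaving out any array except that one (adjusted p up to 0.149). The leukotriene receptors *LTB4R*, *CYSLTR1* and *CYSLTR2* had differences of -0.13, 0.02 and -0.26, none past the test.

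**Figure D2:**
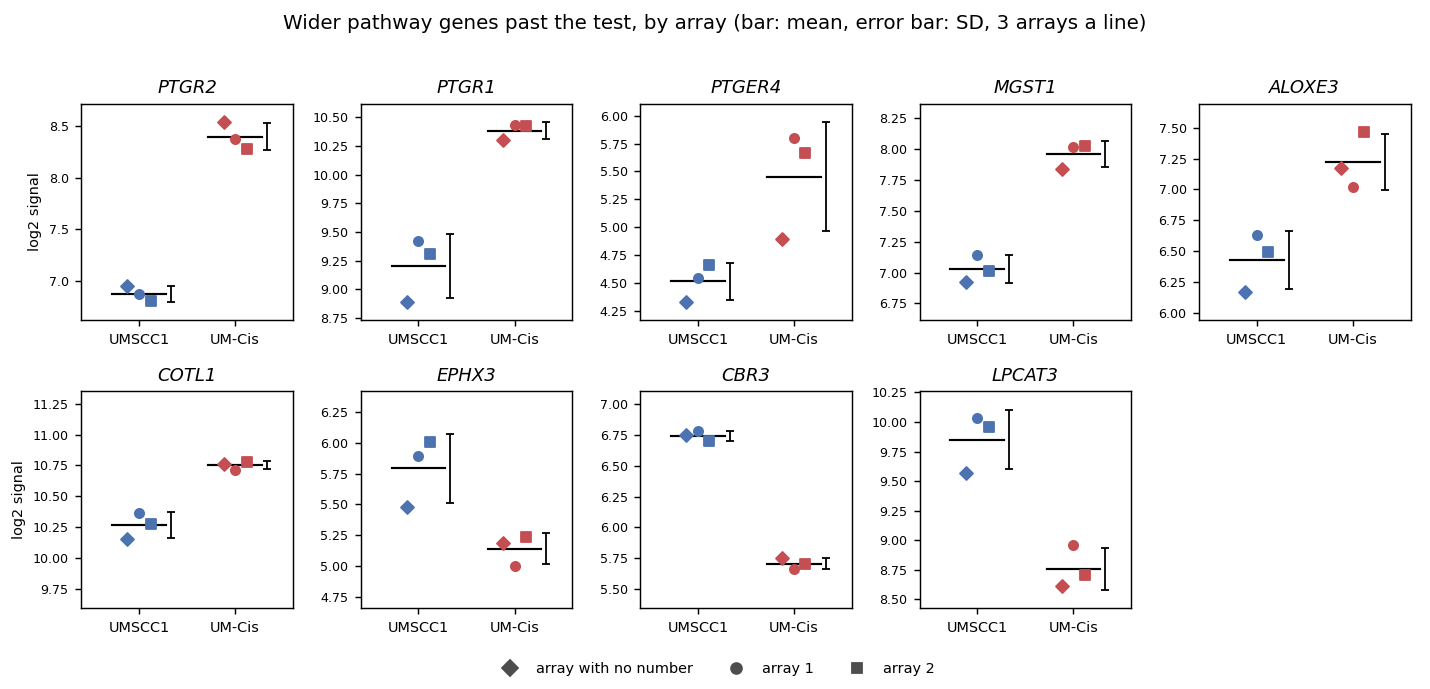
Log2 signal on each array of the 9 genes of the wider pathway that passed the test, with a bar for the mean and an error bar for the SD of the 3 arrays of a line (UMSCC1 blue, UM-Cis red) and a separate axis range for each gene. *PTGR2*, *PTGR1*, *MGST1*, *CBR3* and *LPCAT3* show wide gaps, whereas the lowest UM-Cis array of *PTGER4*, at 4.89, lies near the highest UMSCC1 array, at 4.66.

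**Figure D3:**
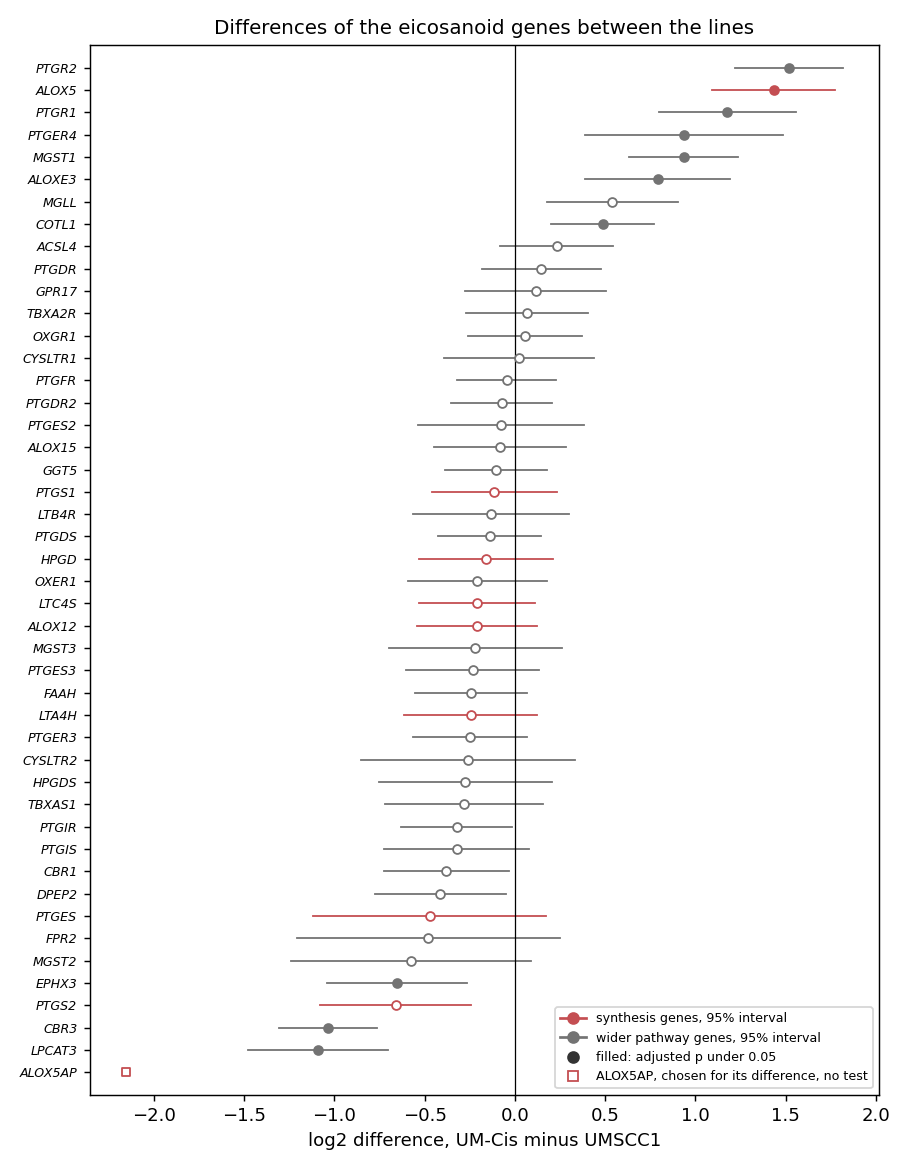
Log2 difference (UM-Cis minus UMSCC1) of the 9 synthesis genes (red) and the 37 genes of the wider pathway (grey), ordered by size, with 95% intervals of the limma fit and filled points for an adjusted p under 0.05. *ALOX5AP*, at -2.16, is shown with no interval because it was chosen for this difference. *PTGR2* and *ALOX5* have the highest differences, 1.52 and 1.43.

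The 10 tested genes on each side of *ALOX5AP* were described, since position was not used to choose it. Of these 20 genes, 0 were higher in UM-Cis, 4 were lower and 16 did not pass by limma, beside 5.91% of all genes higher and 4.6% lower. The median difference was -0.11, beside -0.04 over all genes. The nearest tested gene before it, *USPL1* (30617920 to 30660766), fell by 0.76 on the log2 scale (limma adjusted p = 0.0131), and the nearest after it, *LINC00398* (30803206 to 30810645), had a difference of 0.18 (limma adjusted p = 0.66). The others that fell were the chaperone *HSPH1* (-1.26, limma adjusted p = 0.0076), the chromatin protein *HMGB1* (-0.75, limma adjusted p = 0.0409), which has many near-identical copies elsewhere, and the proteasome assembly factor *POMP* (-0.56, limma adjusted p = 0.0314). The call of *POMP* was lost when any 1 array was left out (adjusted p up to 0.121), that of *HMGB1* when any array except UMSCC1 array 1 was (up to 0.119), and that of *USPL1* without UMSCC1 array 1 or 2 (up to 0.0628). *UBL3*, a ubiquitin-like gene of the same stretch, had a difference of 0.64 in the other direction (limma adjusted p = 0.0512), which passed in 10 of 19 alternatives, among them the replicate block (limma adjusted p = 0.0210) and leaving out the UMSCC1 array with no number (limma adjusted p = 0.0117). It did not pass without any other single array (limma adjusted p up to 0.183), with all probe sets (0.105) or by the methods' t-test (0.156). By the methods' t-test and under the control gene scaling, 0 of the 20 were lower. With control genes centred by gene, 1 was lower.

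**Figure D4:**
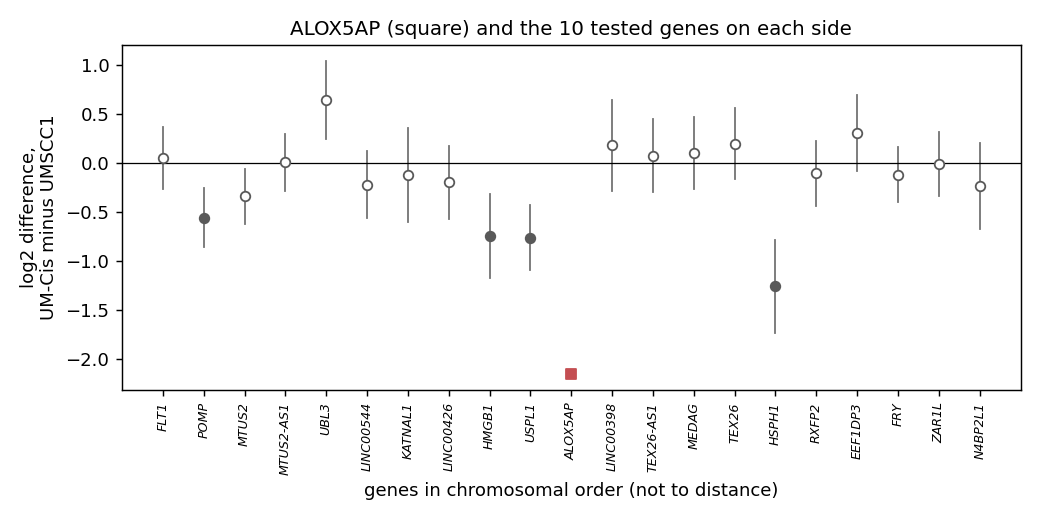
Log2 difference (UM-Cis minus UMSCC1) of *ALOX5AP* (square) and of the 10 tested genes on each side in chromosomal order, with 95% intervals of the limma fit and filled circles for an adjusted p under 0.05. The 4 filled neighbours lie between -1.26 and -0.56, and *ALOX5AP*, chosen for its difference, at -2.16.

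The 5 genes whose log2 signals followed those of *ALOX5AP* most closely over the 6 arrays were the squamous keratin *KRT13*, the mitotic kinesin *KIFC1*, the neuropeptide gene *NMB*, the mitotic kinase *AURKB* and the neuropeptide gene *GAL*. Their Pearson correlations with *ALOX5AP* were 0.9995, 0.998, 0.998, 0.998 and 0.997. *KRT13* also shared the size of the difference, at -2.05, whereas *KIFC1* had -1.04, *NMB* -1.65, *AURKB* -1.51 and *GAL* -1.33. Since the arrays form separate groups by line, a correlation over 6 arrays is largely the difference between the lines, and it is given as a description. Among the synthesis genes the correlation with *ALOX5AP* ran from -0.95 for *ALOX5* to 0.86 for *PTGS2*.

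Leukocytes are the cells best known for both *ALOX5AP* and *ALOX5*, so markers of other cell types were read on the same arrays. Of the leukocyte and myeloid list, 8 of 13 were measured, and 4 of the 8 had means under the array medians. By limma 1 was higher and 1 lower, beside 10.5% of all genes in either direction. The lines did not overlap for 5 of the 8, with 1 higher and 4 lower in UM-Cis, beside 14.7% and 15.7% of all genes. Of the 8, 6 had a negative difference, as had 8165 of the 14812 genes. The mean log2 signal of the 8 ranged from 5.10 to 5.37 in UM-Cis and from 5.20 to 5.38 in UMSCC1. *CD68*, a lysosomal glycoprotein of macrophages, was the brightest and was higher in UM-Cis (10.06 ± 0.44 against 8.65 ± 0.35, limma adjusted p = 0.0115, 0.0547 without UMSCC1 array 1). *CD14* was lower (4.30 ± 0.09 against 4.83 ± 0.17, limma adjusted p = 0.0490, lost when any 1 array was left out, up to 0.161). *PTPRC*, which defines leukocytes, was not analysed here. Of the mast cell and granulocyte list 6 of 7 were measured and 0 passed, beside 10.5% of all genes in either direction. Its mean log2 signal was 4.32 to 4.41 in UM-Cis and 4.48 to 4.83 in UMSCC1. The lines did not overlap for 2 of the 6, *TPSAB1*, the brightest (difference -0.50, limma adjusted p = 0.158), and *KIT* (-0.68, limma adjusted p = 0.187), both lower in UM-Cis, beside 30.4% of all genes. The lymphocyte, fibroblast and endothelial lists had 2 measured genes each, none past the test, with *NKG7*, *LUM* and *VWF* as the brightest. The part of other cells in the levels of *ALOX5AP* and *ALOX5* was not tested.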

How the data were processed

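The values deposited by the authors were log2 signals of probe sets (Affymetrix Human Gene 2.0 ST). The methods name quantile normalization and the submitters' processing notes RMA, with its version, the annotation and any filter not given in these sources. No detection call was used, so signal over background is unknown, and 3 arrays per line limit the precision. Of 44629 probe sets, 15835 had 1 symbol in the platform annotation, 0 had several and 28794 had none here. All 15835 gene identifiers were found in a RefSeq table (GRCh38.p14). Each of 14812 genes was represented by its brightest probe set (highest mean over the 6 arrays). All 9 measured synthesis genes had 1 probe set.

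UM-Cis was compared with UMSCC1 in limma 3.58.1 under R 4.3.3 by the two-sided moderated test of lmFit and eBayes. P-values were adjusted over all genes by Benjamini-Hochberg, the threshold was 0.05, and dim probe sets were kept. The step was tested on simulated data with independent noise for each gene and array. These data held no effect shared by arrays, so the test does not cover the component that separated the arrays with no number. The members, gene lists and naming rule were chosen with earlier results of these data known. Named were all synthesis genes, genes of the wider list past the threshold without overlap, the nearest neighbours of *ALOX5AP* and those past the threshold. Also named were its 5 most correlated genes, the epithelial markers, and the brightest marker of each other list. *ALOX12-AS1*, *MGLL*, *ALOX15*, *MGST2*, *MGST3*, *UBL3*, *CD14*, *KIT*, *PTGES2*, *PTGES3*, *CBR1*, *TBXAS1* and the leukotriene receptors were named after their values were seen.

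Alternatives were an unpaired t-test (named among the study's general methods), array weights, a trended robust prior, other scalings (cyclic loess, quantile, 1 median for all or for control genes), leaving out dim probe sets, keeping every probe set, averaging those of a gene, a 2-fold rule, leaving out each array, and the replicate block. The deviations of an array from its line's mean correlated across the lines by 0.505 for the arrays with no number, 0.237 for arrays 1 and 0.357 for arrays 2. Across labels, UM-Cis array 1 correlated by 0.265 with UMSCC1 array 2, and UM-Cis array 2 by 0.233 with UMSCC1 array 1. Between an array with no number and a numbered array of the other line, the correlations ran from -0.433 to -0.327. Deviations from a line's mean cancel within that line, so these correlations are not independent of the 0.505. The deviations thus tie the arrays with no number together but do not tell array 1 from array 2. The block still took all labels to pair arrays, although no source names a common batch. The numbered arrays alone and control genes centred by gene were added after seeing the data. Figures were drawn with matplotlib 3.10.9.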

Additional observations from a re-analysis of the deposited data

How the results depend on the processing

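*ALOX5AP* was chosen for its difference on these same arrays, so its course under the alternatives is a description and no added support. Its difference stayed negative, from -2.28 to -2.01 with 1 array left out and -1.60 with an equal median of control genes. *ALOX5*, *PTGR2* and *MGST1* stayed past the adjusted p threshold in all 19 alternatives. Of the 8 other synthesis genes, 0 were called lower, but 2 were with array weights (*PTGS2* at 0.00645 and *LTA4H* at 0.0493, limma adjusted p) and with the numbered arrays alone, 1 with the filter on dim probe sets, 1 with the replicate block and 0 to 1 with an array left out. The wider list had 6 higher, 3 by the methods' t-test, 3 with all probe sets, 13 with the control median, 2 by the 2-fold rule and 3 to 5 with an array left out. Its 3 lower calls became 1 by the t-test, 5 with array weights and 0 with the control median. Of the neighbours, 0 were higher, against 1 with the trended robust prior, array weights, quantile, cyclic loess, the control genes centred by gene, the dim filter, the block and the numbered arrays alone, 9 with the control median and 0 to 1 with an array left out. The 4 lower neighbours became 0 by the t-test and with the control median, 1 with centred control genes and by the 2-fold rule, 2 with all probe sets and 1 to 2 with an array left out. Of 20 other cell type markers, 1 was higher, against 0 by the t-test, 4 with the control median and 0 to 1 with an array left out. The 1 lower marker was 0 by the t-test, quantile, cyclic loess, all-gene median, both control scalings, dim filter, all probe sets, 2-fold rule and with any array left out, 3 with array weights and 2 with the block. *CD14* reversed to 0.025 with the control median. The control median rests on 14 of 28 listed genes, whose own median difference was -0.08 and of which 1 was called lower. It shifts every difference by 0.55 and calls 5885 genes higher and 168 lower (97.2% higher), against 876 and 681 (56.3% higher). Centred by gene, the shift was 0.13 and 72.6% were higher, with 1069 and 403 genes. The block called 1450 and 1244 genes, array weights 1594 and 1508, the numbered arrays alone 1387 and 1301, and the t-test 322 and 248. Among the synthesis genes and the named genes past the threshold, the block changed the call of *PTGS2* alone, and it added *UBL3*. In the wider list the block called 7 genes higher and 4 lower, against 6 and 3. *HPGD* and *ALOX12* were dim on every array, which limits what their differences can show. The causes of these changes were not tested.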
